A study of Homo sapiens with 14 samples.

Results

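A set of 10 genes that encode proteins secreted by the liver was followed through the differentiation of H9 human embryonic stem cells (hESC) to foregut. The genes were AFP, ALB, TTR, APOA1, APOA2, APOB, FGB, SERPINA1, RBP4 and TF, chosen by name as 10 of the 63677 gene IDs of the bulk RNA-seq tables. H9 is an established cell line. The bulk RNA-seq comprised 12 libraries in 5 groups: undifferentiated hESC (2 libraries), endoderm without an sgRNA (DE_ctl, 3), endoderm with the LTR5 sgRNA (DE_CRISPRi, 3), foregut without an sgRNA (FG_ctl, 2) and foregut with the LTR5 sgRNA (FG_CRISPRi, 2). Endoderm and foregut cells of all 4 groups carried dCAS9-KRAB, a catalytically dead Cas9 fused to a repressor domain and delivered by lentivirus to a puromycin-selected population. The sgRNA directs it to LTR5, the long terminal repeats of the HERVK retrovirus. Endoderm was made over 3 days with 100 ng/ml Activin A and the WNT agonist CHIR-99021, at 5 and then 0.5 µM. Foregut cells had 3 further days in a foregut medium of a pancreatic differentiation kit. Single-nucleus RNA-seq and ATAC-seq came from 1 preparation of H9 gastruloids, aggregates seeded at 800 cells per well with 3 µM CHIR-99021 and harvested at 72 h.

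The groups of the 4 foregut libraries were taken from their titles, because their fields for cell status and medium name other stages (undifferentiated hESC for FG_ctl and endoderm without an sgRNA for FG_CRISPRi). Stage markers were read against the titles. POU5F1, a pluripotency factor, lay at 0.699 to 4.34 CPM, counts per gene scaled to a common library size, in the 4 foregut libraries, at 291 and 575 CPM in hESC and at 386 to 826 CPM in the 6 endoderm libraries. FOXA1, a factor of foregut endoderm, lay at 147 to 231 CPM in foregut and at or under 7.73 CPM in the other 8 libraries. PDX1, a factor of pancreas and duodenum, lay at 27.0 and 24.7 CPM in FG_ctl and at 2.79 and 7.73 CPM in FG_CRISPRi. These markers set the 4 foregut libraries apart from hESC and endoderm, but they do not check whether a foregut library held the sgRNA. Library sizes for CPM were scaled by the TMM method. Libraries held 11583063 to 37152434 reads on genes, and 3 reads, taken as the floor for a count of 0, stood for 0.0770 to 0.252 CPM. Mitochondrial genes took 8.30 to 34.7% of the reads. The study's methods call the RNA-seq replicates biologically independent, and neither they nor the labels say what made them so, such as separate cultures or differentiations.

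The liver makes most of the proteins of blood plasma. In the embryo, the visceral endoderm of the yolk sac makes many of the same proteins before the liver does, and AFP, TTR and the apolipoproteins are early products of both tissues, whereas ALB is the main product of the mature hepatocyte. The genes share a small set of transcription factors, HNF1, HNF4, FOXA and C/EBP, whose sites lie close to the transcription start of several of them.

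AFP and ALB are neighbouring genes of 1 family on the plus strand of chromosome 4, at 74296855 to 74321891 and at 74262831 to 74287199 of GRCh37. Their promoters are printed beside that of FGB because these 3 windows hold matches to the same pair of motifs, and beside that of APOA2, a gene with a level that varied little among foregut libraries. Each is the stretch of 250 bases before the RefSeq transcription start on GRCh38.p14, read 5′ to 3′ on the strand of the gene. The places are chr4:73435971-73436220 for AFP, chr4:73404037-73404286 for ALB, chr4:154562730-154562979 for FGB, all on the plus strand, and chr1:161223629-161223878 on the minus strand for APOA2. Capitals mark motif matches on either strand.
AFP: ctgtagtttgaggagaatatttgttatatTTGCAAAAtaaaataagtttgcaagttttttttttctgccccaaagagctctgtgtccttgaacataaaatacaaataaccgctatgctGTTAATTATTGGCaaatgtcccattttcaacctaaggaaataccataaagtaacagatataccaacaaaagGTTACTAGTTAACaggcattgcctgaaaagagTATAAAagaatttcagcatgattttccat
ALB: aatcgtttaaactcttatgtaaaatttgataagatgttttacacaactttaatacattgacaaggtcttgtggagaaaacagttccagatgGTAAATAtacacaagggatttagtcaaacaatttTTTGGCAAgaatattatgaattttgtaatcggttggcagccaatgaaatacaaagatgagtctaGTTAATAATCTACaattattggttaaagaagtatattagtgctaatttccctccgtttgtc
FGB: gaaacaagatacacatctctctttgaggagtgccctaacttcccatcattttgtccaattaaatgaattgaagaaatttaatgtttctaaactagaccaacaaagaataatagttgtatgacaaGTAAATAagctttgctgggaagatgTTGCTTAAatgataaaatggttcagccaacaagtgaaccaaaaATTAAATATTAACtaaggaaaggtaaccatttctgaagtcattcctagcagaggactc
APOA2: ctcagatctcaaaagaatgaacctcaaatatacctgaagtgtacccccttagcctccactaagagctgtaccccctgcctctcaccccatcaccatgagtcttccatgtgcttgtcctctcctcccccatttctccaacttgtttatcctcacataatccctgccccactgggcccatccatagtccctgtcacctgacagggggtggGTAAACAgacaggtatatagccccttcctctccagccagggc

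Motifs were searched on both strands in windows from 250 bases before to 50 after the start, and the table of promoters held 7 of the 10 genes (TTR, APOA1 and APOB were not matched). TTGCNNAA, a C/EBP motif, was found in AFP at −221, in ALB at −125 and in FGB at −101 from the start, and in 10.6% of all 27305 windows. The palindromic HNF1 consensus was found with up to 2 mismatches in AFP at −132 and −61, in ALB at −61 and in FGB at −58, and in 1.31% of all windows. Exact copies of it were in 0 of the 7 windows. TATTTAC, a FOXA motif, was found in ALB at −159 and in FGB at −126, with 2.77% of all windows holding it. Another FOXA motif, TGTTTAC, was found in APOA2 at −42, against 3.41% of all windows. A TATA box, TATAAA, lay in AFP at −29 and in RBP4 just past the start, and in 12.0% of all windows. One GATA motif, AGATAA, lay in APOA2 at 38 bases past the start (10.5% of all windows). CAAAGTCCA, an HNF4 motif, was in 0 of the 7 (0.359%). The windows of SERPINA1 and TF held no match to these letters. Each gene had 1 window, at 1 RefSeq start. Whether these cells or the liver use that start was not checked, so a lack of matches holds for the window only. A match is a description of letters and not a site shown to be bound.

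The members were near absent from hESC and endoderm and rose to a summed 2679 to 3553 CPM in foregut. Their sum was 7.44 and 9.25 CPM in hESC, 1.74 to 4.01 CPM in DE_ctl and 2.72 to 4.87 CPM in DE_CRISPRi. In foregut it was 3014 and 3553 CPM without the sgRNA and 3298 and 2679 CPM with it. TTR, APOA1 and APOA2 together took 87.6 to 98.6% of that sum in the foregut libraries, a share of reads with no correction for gene length. Bulk libraries cannot tell fewer cells of a type from less RNA per cell, and this holds for every level here.

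Transport proteins are described first. TTR, which carries thyroid hormone and the retinol-binding protein, had 0 reads in all 8 libraries of hESC and endoderm. It lay at 1540 and 1954 CPM in FG_ctl and at 1989 and 1495 CPM in FG_CRISPRi, so that the foregut groups overlapped. RBP4, which carries retinol and travels in plasma bound to TTR, stayed low at every stage. It lay at 0.247 and 0.259 CPM in hESC, at 0.460 to 0.875 CPM in DE_ctl and at 0.132 to 0.765 CPM in DE_CRISPRi. In foregut it lay at 3.57 and 1.87 CPM without the sgRNA, and at 0.617 (17 reads) and 0 CPM with it. TF, the iron carrier transferrin, was at or under 0.336 CPM before foregut. It lay at 34.0 and 43.6 CPM in FG_ctl and at 25.3 and 44.1 CPM in FG_CRISPRi.

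AFP and ALB, the fetal and adult albumins, differed from the other carriers. AFP lay at 1.04 and 0.987 CPM in hESC and had 0 reads in all 6 endoderm libraries. In FG_ctl it lay at 187 CPM (5759 reads) in replicate 1 and at 4.82 CPM (188 reads) in replicate 2, and in FG_CRISPRi at 0.0363 CPM (1 read) and 0. All but 1 of the AFP reads of foregut thus came from the 2 libraries without the sgRNA, and most of them from replicate 1. ALB, the most abundant protein of adult plasma, had 3 reads in 1 DE_CRISPRi library (0.143 CPM) and 0 in the other 11, foregut included. ALB was thus at or under the floor in every library.

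The apolipoproteins build and coat lipoprotein particles. APOA1, the main protein of high-density lipoprotein, was at or under 1.09 CPM in hESC and endoderm. It lay at 505 and 764 CPM in FG_ctl and at 582 and 499.7 CPM in FG_CRISPRi. APOA2, the second protein of that particle, was at or under 3.49 CPM before foregut, then at 596 and 740.4 CPM without the sgRNA and at 682 and 602 CPM with it. The 2 genes of the high-density particle were close in level, and their foregut groups overlapped. APOB, the scaffold of low-density and very-low-density lipoprotein, followed another course. It lay at 7.09 and 5.18 CPM in hESC, at 0.0625 to 0.506 CPM in DE_ctl and at 0 to 0.330 CPM in DE_CRISPRi. In foregut it was back at 12.9 and 3.82 CPM without the sgRNA and 7.25 and 11.3 CPM with it, a range that overlaps that of hESC.

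FGB and SERPINA1 stand for clotting and protease control. FGB, the beta chain of fibrinogen, had 0 reads in hESC and endoderm. It lay at 88.8 and 17.4 CPM in FG_ctl and at 5.66 and 7.25 CPM in FG_CRISPRi, with the groups apart. SERPINA1, the inhibitor of neutrophil elastase known as alpha-1 antitrypsin, had 1 read in 1 hESC library and 0 in the other hESC library and in endoderm. It lay at 46.4 and 23.9 CPM in FG_ctl and at 6.75 and 19.1 CPM in FG_CRISPRi, again with the groups apart.

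**Figure D1:**
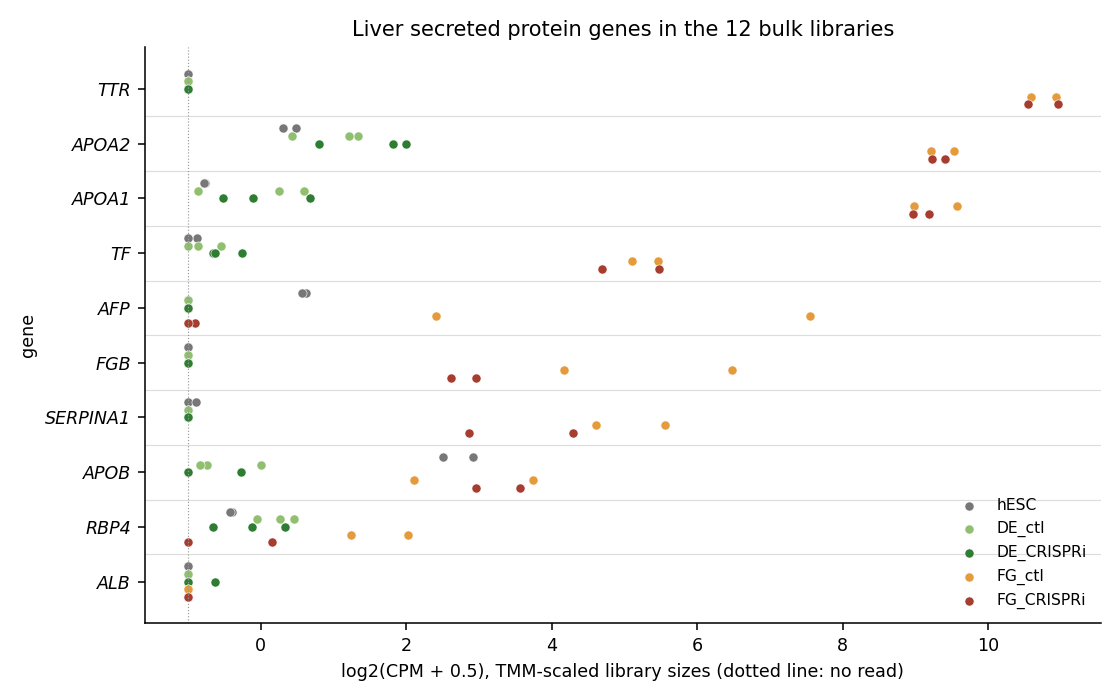
Level of each gene in the 12 bulk libraries, as log2(CPM + 0.5) on TMM-scaled library sizes, with 1 point per library coloured by group and a dotted line at no read. TTR, APOA2 and APOA1 sit far to the right in all 4 foregut libraries, AFP spreads from 187 CPM to no read among them, and ALB stays at or next to the dotted line.

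Per kilobase of merged exons, the scale that compares genes, the mean level in FG_ctl ran from TTR (803 ± 135 CPM per kb, SD, n = 2) through APOA2 (707 ± 108) and APOA1 (579 ± 167) to AFP (29.97 ± 40.2). FGB (12.1 ± 11.5), SERPINA1 (7.17 ± 3.26), RBP4 (1.87 ± 0.824), TF (1.49 ± 0.261) and APOB (0.565 ± 0.434) followed, and ALB was at 0. The ranges of mean ± SD overlapped among TTR, APOA2 and APOA1, among AFP, FGB and SERPINA1, and between RBP4 and TF. Those of AFP and FGB also overlapped those of RBP4, TF and APOB. The genes were measured in the same libraries, so their order can be read within each. TTR, APOA2 and APOA1 kept their order in both FG_ctl libraries. AFP lay above FGB and SERPINA1 in replicate 1 and below both in replicate 2. RBP4 and TF also changed places. In rank among 19488 protein-coding genes, TTR was 31st to 46th, APOA2 38th to 50th and APOA1 46th to 73rd in the 4 foregut libraries. AFP was 535th and 8570th in FG_ctl and under the floor in FG_CRISPRi. The annotated exons of TF add up to 26038 bases, which lowers its level per kilobase.

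Between hESC and control endoderm, AFP and APOB fell and APOA1 rose, so that 3 of the 6 members tested were called, against 26% of all 20818 genes tested (14.2% higher and 11.8% lower). A gene was called at an adjusted p under 0.05 over all genes tested in edgeR and a fold change over 2. AFP went from 48 reads over both hESC libraries to 0 in DE_ctl, at least 6.39-fold lower against the floor of 3 reads per library (adjusted p = 0.000194, edgeR). APOB was 27.5-fold lower by the group means (log2 fold change −4.63, SE 0.50, adjusted p = 3.27e-06, edgeR). For both genes, every endoderm library lay under both hESC libraries, as for 30.6% of all genes. APOA1 was higher by 2.74 on the log2 scale (SE 1.04, adjusted p = 0.0498, edgeR), but 1 endoderm library lay at 0.0498 CPM, under both hESC libraries. That call was lost under 4 of 8 other settings and in 4 of the 5 fits that left out 1 library (hESC replicate 1 or 2, DE_ctl replicate 2 or 3), with adjusted p from 0.00842 to 0.252 over the 8 settings. APOA2 (log2 fold change 0.96, adjusted p = 0.115, edgeR), RBP4 (1.42, adjusted p = 0.0937, edgeR) and TF (1.56, adjusted p = 0.570, edgeR) did not pass.

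From endoderm to foregut, all 9 members tested rose without the sgRNA, from 4.02-fold by the group means (RBP4) to at least 11028-fold (TTR), and ALB could not be tested. Among all 21466 genes tested, 29% were called in either direction and 14.1% were higher. TTR, AFP, FGB and SERPINA1 had 0 reads in endoderm, so they entered the fit through foregut alone and could only rise. The members were also chosen with earlier results of these data known. The counts of members are therefore descriptions and no test against the shares over all genes. Against 0 reads in the 3 endoderm libraries, TTR was at least 11028-fold higher (adjusted p = 1.93e-06, edgeR), AFP at least 606-fold (0.00383), FGB at least 335-fold (0.000337) and SERPINA1 at least 222-fold (4.23e-05). Members with reads in endoderm rose by 10.07 on the log2 scale for APOA1 (SE 0.60, adjusted p = 8.59e-06, edgeR), 9.01 for TF (SE 0.57), 8.74 for APOA2 (SE 0.36), 5.13 for APOB (SE 0.80) and 2.00 for RBP4 (SE 0.58, adjusted p = 0.0253, edgeR). For all 9 genes, both foregut libraries lay above the 3 endoderm libraries, as 25.6% of all tested genes did. The limits for AFP and FGB rested on FG_ctl replicate 1. By replicate 2 alone AFP was at least 30.4-fold and FGB at least 110-fold higher than in endoderm, and both were still called without replicate 1 (adjusted p = 0.000399 and 6.71e-05, edgeR). The AFP call was lost in voom (adjusted p = 0.146). The RBP4 call was lost with a replicate block (adjusted p = 0.115, edgeR), with all 5 groups in the fit (adjusted p = 0.154, edgeR) and in 4 of 5 fits that left out 1 library (each DE_ctl replicate, or FG_ctl replicate 1), where its fold change was 1.46 to 2.22 on the log2 scale.

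With the sgRNA, the same step raised 7 of 9 members tested, all of them also higher without it, in libraries that the control step did not use. Here 26.3% of 20735 genes were called and 12.9% were higher. TTR, SERPINA1 and FGB had 0 reads in DE_CRISPRi and again could only rise. TTR was at least 8809-fold higher (adjusted p = 4.29e-05, edgeR), SERPINA1 at least 65.3-fold and FGB at least 32.6-fold. APOA1 rose by 10.00 on the log2 scale (SE 0.50), APOA2 by 8.01 (SE 0.45), TF by 7.49 (SE 0.50) and APOB by 6.38 (SE 1.09, adjusted p = 0.00406, edgeR). The pair that had risen in control foregut and was not called here was AFP and RBP4. AFP had 1 read in FG_CRISPRi and was not tested, and RBP4 differed by −0.46 on the log2 scale (SE 1.75, adjusted p = 0.852, edgeR). ALB, tested through its 3 endoderm reads, was not called (adjusted p = 0.321, edgeR).

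Genes of the same pathways were counted in the 2 foregut steps from 4 companion lists. The shares of all genes higher in these steps were 14.1% without and 12.9% with the sgRNA. Of the 24 further liver secreted proteins, 19 were tested without the sgRNA, with 11 higher and 1 lower, and 14 with it, again with 11 higher and 1 lower. The same 11 genes were higher in both (AGT, HPX, F2, F10, VTN, CP, GC, FGA, FGG, APOM and AMBP), and the gene lower in both was C3, a complement protein. The median log2 fold change was 5.60 over the 19 genes tested without and 6.54 over the 14 tested with the sgRNA. Over all genes tested it was −0.09 and −0.14. As the medians of the list cover different genes, they do not compare the size of the rise between the steps. F2, which encodes prothrombin, went from 0 reads to 50.5 CPM in FG_ctl, at least 319-fold higher, and was at least 211-fold higher with the sgRNA. FGA, the alpha chain of fibrinogen and partner of FGB, was at least 202-fold higher without and at least 106-fold higher with the sgRNA. Its levels in foregut were 39.4 and 24.5 CPM in FG_ctl and 18.6 and 23.2 CPM in FG_CRISPRi, so that its groups were apart but nearer to each other than those of FGB. FGG, the gamma chain, lay at 10.5 and 3.33 CPM without and at 2.39 and 2.36 CPM with the sgRNA. VTN, which encodes vitronectin, rose by 11.91 on the log2 scale without the sgRNA and by 10.48 with it.

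Of the 12 genes of lipoprotein assembly and uptake, 6 were higher and 2 lower without the sgRNA, and 7 higher and 1 lower with it. The 6 higher in both were MTTP, AMN, LCAT, TM6SF2, APOE and LRP2. MTTP, which loads lipid onto APOB, rose from 0.0890 to 86.8 CPM in the control step (log2 fold change 9.89, SE 0.40) and by 10.30 with the sgRNA (SE 0.56). CUBN, a receptor of the yolk sac that takes up APOA1, fell from 2.93 CPM in DE_ctl to 0 in FG_ctl. Of the partners of RBP4, TTR and TF in vitamin A and iron handling, 9 of 10 were tested, with 3 higher and 1 lower without the sgRNA and 1 higher and 1 lower with it. The share higher over all genes was 14.1% without and 12.9% with the sgRNA. The median log2 fold change was 1.31 and 1.29 for the lipoprotein list and 0.56 and 0.01 for the vitamin A and iron list. TFRC, the receptor for TF, fell by 2.29 without and by 3.97 with the sgRNA.

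Of 16 liver-enriched transcription factors, 13 were tested. Without the sgRNA, 3 were higher (FOXA1 and FOXA2 among them) and 2 lower (TBX3 and GATA6), and with it 2 were higher and 5 lower. Over all genes tested, 14.1% were higher without the sgRNA and 12.9% with it. The median of the list was 0.31 and 0.25 on the log2 scale. FOXA1 rose by 4.99 without and by 4.88 with the sgRNA. HNF4A lay at 34.1 and 29.5 CPM in FG_ctl and at 21.3 and 24.9 CPM in FG_CRISPRi. CEBPA had 0 reads in all 4 foregut libraries. CEBPB, the other C/EBP gene of the list, lay at 6.01 and 7.67 CPM in FG_ctl and at 9.18 and 12.9 CPM in FG_CRISPRi. Across hESC to DE_ctl, 8 of the 13 factors were higher and 1 lower (median 2.41 on the log2 scale), although 5 members had 0 reads in every DE_ctl library. Of the other lists, that step called 4 higher and 2 lower of 11 secreted proteins, 2 and 1 of 12 lipoprotein genes, and 6 and 1 of 9 vitamin A and iron genes. Its shares over all genes were 14.2% higher and 11.8% lower.

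Marker lists of cell types that make these proteins were summed in each foregut library. The hepatocyte list (6 genes matched, 3 or 4 of them at 0 in each library) lay at 65.8 and 56.2 CPM in FG_ctl and at 73.5 and 62.3 CPM in FG_CRISPRi, with ALB at 0. The yolk sac and visceral endoderm list (6 genes) lay at 429 and 187 CPM in FG_ctl and at 163 and 198 CPM in FG_CRISPRi. Nearly all of it was SPINK1, at 417 and 179 CPM and at 150 and 185 CPM. LRP2 (8.83 CPM, against 2.69, 6.78 and 6.12) and DPP4 (0.844 CPM, against 0.667, 0.834 and 0) were also highest in FG_ctl replicate 1. CUBN, AMN and NODAL were not. CUBN was at 0 in 3 of the 4 libraries and at 1.02 CPM in FG_CRISPRi replicate 1. AMN was lowest in FG_ctl replicate 1 (1.49 CPM, against 3.77, 3.99 and 2.45), and NODAL was highest in FG_CRISPRi replicate 2 (4.02 CPM, against 1.62, 1.05 and 0.544). The intestine list (4 genes) lay at 134 and 124 CPM in FG_ctl and at 59.2 and 63.7 CPM in FG_CRISPRi. Most of it was VIL1, at 109 and 112 CPM and at 57.5 and 59.9 CPM. FABP2 was at 0 in each of these libraries, and LGALS4 was at 0 except for 0.390 CPM in FG_ctl replicate 1. CDX2, a factor of the intestine, lay at 24.5 and 12.3 CPM without and at 1.67 and 3.76 CPM with the sgRNA. The foregut and pancreas list (8 genes matched) lay at 342 and 258 CPM in FG_ctl and at 263 and 347 CPM in FG_CRISPRi, so that its groups overlapped. Most of it was SOX2, also a gene of undifferentiated cells, at 191 and 142 CPM and at 157 and 224 CPM. PDX1 and HHEX lay lower in both FG_CRISPRi libraries (HHEX at 43.7 and 23.0 CPM against 11.2 and 18.9), and MNX1 lay higher in both (62.0 and 58.6 CPM against 79.2 and 74.6). FG_ctl replicate 1, the library with most AFP, FGB, SERPINA1 and APOB, also had the most SPINK1 and CDX2. The part of these cell types in the levels of the members was not tested.

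The 2 control foregut libraries differed more than 2-fold for 3 of the 9 members with at least 10 reads in either, against 31.5% of all 17923 such genes. AFP was 38.8-fold higher in replicate 1, and 25 of the 17923 genes lay further apart in either direction. FGB was 5.09-fold and APOB 3.38-fold higher in replicate 1. SERPINA1 (1.95-fold) and RBP4 (1.91-fold) were also higher there, within the 2-fold limit. The 4 others went the other way, with replicate 1 over replicate 2 at 0.788 for TTR, 0.805 for APOA2, 0.780 for TF and 0.662 for APOA1. AFP, FGB and APOB therefore had group means that rested mostly on 1 library, while TTR, APOA1, APOA2 and TF did not. In the FG_CRISPRi pair, SERPINA1 was 2.83-fold higher in replicate 2 and RBP4 at least 4.70-fold higher in replicate 1. That is 2 of 8 members, against 37.6% of all genes. In the other pairs of a group, 5.49 to 16.4% of genes were over 2-fold apart. Genes with at least 10 reads in 1 library and 0 in its partner made up 12.6 and 17.2% in the foregut pairs, and 0.127 to 0.491% in the endoderm pairs.

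**Figure D2:**
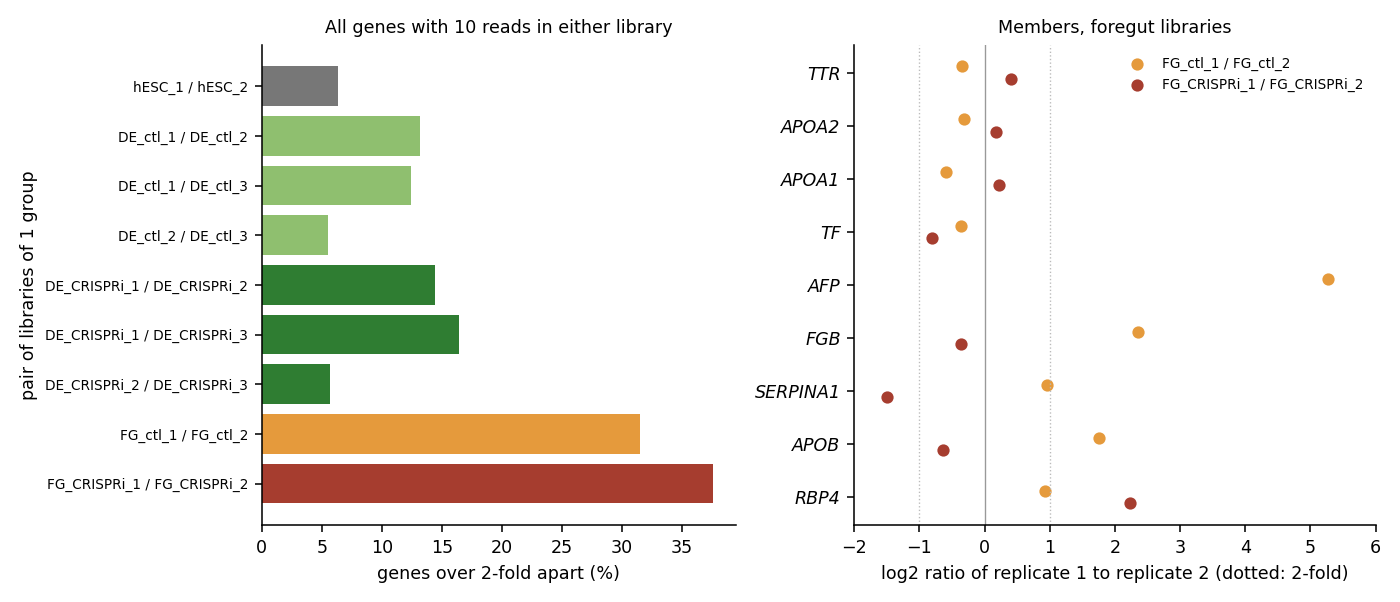
Left, percent of genes over 2-fold apart in each pair of libraries of a group. Right, log2 ratio of replicate 1 to replicate 2 for the members in the 2 foregut groups, with dotted lines at 2-fold. The foregut pairs are the widest, at 31.5 and 37.6%, and AFP lies farthest to the right, 38.8-fold higher in FG_ctl replicate 1.

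The first sgRNA comparison, in endoderm, asked whether LTR5 repression changed these genes. None of the 6 members tested was called in edgeR (7 of 20407 genes, 0.0343%, were), and limma-voom and DESeq2 called 0 as well. At an unadjusted p under 0.05 there were 1056 of the 20407 genes, near the share that this limit returns when no gene changes. The log2 fold change was −0.06 for APOA1 (SE 0.80), 0.73 for APOA2 (SE 0.44), −1.03 for APOB (SE 1.28), −0.53 for RBP4 (SE 0.62) and 1.37 for TF (SE 1.22). These genes held 4 to 115 reads per group, so changes within these errors were not detectable at this depth.

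In foregut, AFP and FGB were lower with the sgRNA, 2 of the 9 members tested, where 0.165% of 20044 genes were called and 0.115% were lower. AFP fell from 5947 reads in FG_ctl to 1 read in FG_CRISPRi, a 4301-fold ratio with a counting interval of 772 to 169889 (95%, exact) that leaves out the spread between libraries (adjusted p = 2.72e-61, edgeR). FGB was 8.23-fold lower by the group means (log2 fold change −3.04, SE 0.43, adjusted p = 2.81e-09, edgeR). Both calls rested on FG_ctl replicate 1. Without it no member was called, and the log2 fold change was −7.70 for AFP and −1.43 for FGB, each with an adjusted p of 1 in edgeR. This fit had 2 residual degrees of freedom and shared a common spread across all genes, so the 38.8-fold gap between the AFP values of FG_ctl did not widen its own error. In voom, where a gene's own spread counts, the adjusted p was 0.964 for AFP and 0.115 for FGB. With all 5 groups in the edgeR fit, AFP stayed called (0.00534) and FGB did not (0.0505).

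The other members of foregut did not pass, with intervals that differ in width. TTR changed by −0.01 on the log2 scale (95% interval −0.54 to 0.52), APOA2 by −0.06 (−0.63 to 0.50), TF by −0.17 (−0.91 to 0.58) and APOA1 by −0.24 (−0.80 to 0.33). For these 4 genes a change beyond 2-fold lay outside the interval of this fit. APOB changed by 0.15 (−0.96 to 1.26). SERPINA1 was 2.72-fold lower by the group means without passing the test (log2 fold change −1.45, SE 0.42, adjusted p = 0.208, edgeR), and RBP4 8.83-fold lower (−3.12, SE 1.90, adjusted p = 1.0, edgeR). For AFP, FGB, SERPINA1 and RBP4, both FG_CRISPRi libraries lay under both FG_ctl libraries, 4 of 9 members where 15.7% of all genes did so. The summed intestine list, mostly VIL1, also lay lower in both FG_CRISPRi libraries, as did CDX2. The sum of the foregut and pancreas list, mostly SOX2, overlapped between the groups. Within that list PDX1 and HHEX lay lower in both FG_CRISPRi libraries and MNX1 higher. CDX2 and PDX1 were called lower in the edgeR fit, against 0.115% of all genes. The part of these cell types in the 4 genes was not tested. Of the companion lists, no gene was called in either sgRNA comparison.

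**Figure D3:**
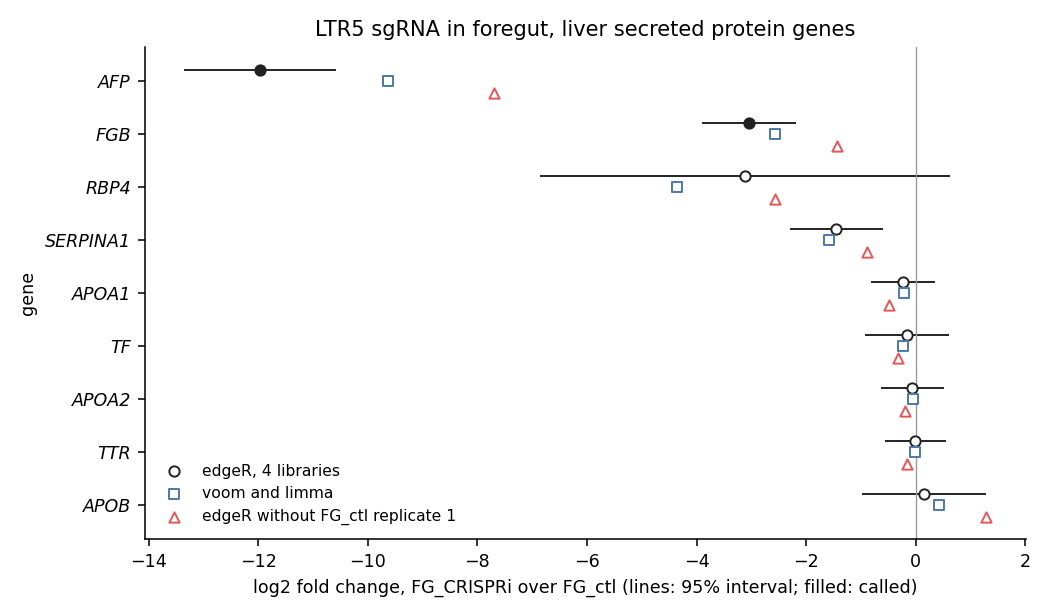
Log2 fold change of 9 members in foregut with over without the sgRNA, by edgeR on 4 libraries (lines are 95% intervals), by voom and limma, and by edgeR without FG_ctl replicate 1, with filled symbols for called genes. AFP and FGB are filled in the first setting only, and TTR, APOA1, APOA2 and TF sit near 0.

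Whether the sgRNA acted differently in foregut and endoderm was tested as an interaction. It could be estimated for 5 members, and it was called for 0 of them in edgeR (0.194% of 22708 genes were called). The smallest adjusted p of a member was 0.733, for TF, with a difference of −1.56 on the log2 scale (SE 0.97). RBP4 differed by −2.55 (SE 1.64), APOA2 by −0.79 (SE 0.52), APOB by 1.18 (SE 1.43) and APOA1 by −0.13 (SE 0.82). AFP, TTR, FGB and SERPINA1 had 0 reads in endoderm and ALB had 0 reads in foregut, so these genes had no estimate. A difference between stages was therefore not tested for the 2 genes called in foregut.

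LTR5 integrants lay within 100 kb of the transcription start of 2 members, APOA2 (92.1 kb, LTR5_Hs) and SERPINA1 (91.5 kb, LTR5B), against 12.3% of 19475 protein-coding genes. Both integrants had 0 uniquely mapped reads in the 12 libraries. Within 50 kb there were 0, against 6.77% of genes. For AFP the closest LTR5 was 1301 kb away and for FGB 1742 kb, where the median over protein-coding genes was 764 kb. MER11, another primate-specific repeat family, lay within 100 kb of 0 members, against 13.2% of genes.

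The genes with levels most like those of AFP over the 12 libraries were sought among 10907 genes that averaged 5 CPM or more. They were PRDX6 (r = 0.87), ALG5 (0.87), ZNF830 (0.84), TGFBR2 (0.83) and SBDS (0.82). PRDX6 lay at 669 and 630 CPM in FG_ctl and at 253 and 312 CPM in FG_CRISPRi, so it was higher in both control libraries without the gap that AFP showed between them. Among members, TTR, APOA1, APOA2 and TF followed one another with r of 0.99, and AFP was closest to RBP4 (0.78) and FGB (0.76). These are descriptions over libraries that share stages and depth.

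In the gastruloid, 4 of the 10 members were listed in the table of nuclei, APOA1, APOB, RBP4 and TF. Every one of its 17493 genes had a UMI (unique molecular identifier, 1 per captured RNA) in at least 34 nuclei, and AFP, ALB, TTR, APOA2, FGB and SERPINA1 were not listed. Of 3646 nuclei, 3422 were kept, with a median of 16302 UMIs. APOA1 had 208 UMIs of 58963061 (exact Poisson 95% interval 181 to 238) and was seen in 140 nuclei, 4.09% (exact binomial 3.45 to 4.81%). RBP4 had 142 UMIs in 116 nuclei (3.39%), APOB 72 in 44 (1.29%) and TF 54 in 48 (1.40%). When 3197 nuclei were thinned to 5000 UMIs each, the shares were 1.44% for APOA1, 1.06% for RBP4, 0.469% for APOB and 0.407% for TF. APOB was uneven, with 17 of its 72 UMIs in 1 nucleus. No share of free RNA was estimated for these nuclei, so the UMIs are not shown to be expression. The intervals cover counting error only, doublets were not marked, and 1 preparation allows no test.

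Nuclei with UMIs of both FOXA1 and GATA4, the endoderm genes listed of 6 sought, numbered 36. APOA1 was seen in 8 of them, 22.2% (exact binomial 10.1 to 39.2%), and in 3.90% (3.27 to 4.61%) of the other 3386 nuclei. The 36 nuclei were deeper, at a median of 24757 against 16252 UMIs. RBP4 and TF were each seen in 2 of the 36 (5.56%) and APOB in 0. No nucleus held UMIs of all 4 genes, 2 held 3, 31 held 2 and 280 held 1. Of the 7 promoter windows, 1 (TF) overlapped one of the 205374 accessible peaks of the same preparation, against 57.8% of all 27305 windows. The TF window lies at 1 RefSeq start that was not checked against the start in use. Its overlap is therefore not shown to be at an active promoter of TF. The closest peak lay 0.044 kb from the window of RBP4, 0.968 kb from AFP, 1.57 kb from APOA2, 2.70 kb from FGB, 3.73 kb from SERPINA1 and 13.3 kb from ALB. Peaks were called over all nuclei together.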

How the data were processed

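The authors aligned bulk reads of polyA-selected stranded libraries to hg19 with HISAT2 and deposited raw counts per gene and per integrant of transposable elements (TEs), of reads mapped at 1 place, made with featureCounts. The strand setting of the counting is not given in the sources used here. For the nuclei, the authors deposited UMI counts per gene and the places of peaks, made with Cell Ranger on hg38. Unannotated IDs (63677 in all, 55665 annotated) held 0.352 to 0.526% of reads and stayed in the fits. No column of another sample was present.

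Counts were tested with edgeR 4.0.16 in R 4.3.3 (quasi-likelihood F test, two-sided, TMM factors, genes with at least 3 reads in 1 library of the fit), 1 fit per comparison on its own groups, with Benjamini–Hochberg adjustment over all genes tested. limma 3.58.1 (voom), DESeq2 1.42.0, other scalings, filters, a replicate block, all groups in 1 fit and leaving out each library were alternatives. The scripts were tested on simulated data with known changes. CPM per kb used merged GENCODE exons on GRCh37. Promoter sequences are from RefSeq on GRCh38.p14. Nuclei were kept from 1000 UMIs and 200 genes upwards if mitochondrial UMIs were at most 25%. Other software comprised matplotlib 3.10.9, scipy 1.17.1, pandas 2.3.3, numpy 2.4.6, python 3.11.15 and the R package for fast tables (1.17.8 of data.table).

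The 10 members and the companion lists were chosen with earlier results of these data known. Named companion genes were up to 4 called genes per list and comparison. They had the largest fold change among called genes of at least 1 CPM on average. Besides these, genes set beside a member (FGG, HNF4A, CEBPA, CEBPB and markers) were chosen after their values were seen. So were genes named for having 0 reads before a step. Values of some companion genes are not reported here. Replicate numbers were not taken to pair the samples, since no source says what a number marks. Deviations from the group means of same-numbered libraries with and without the sgRNA correlated at −0.0388 to 0.0193 in endoderm and −0.1765 in foregut. Between endoderm and foregut, same-numbered libraries correlated at 0.1321 to 0.1614, over 2 pairs in each step.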

Additional observations from a re-analysis of the deposited data

Results flagged for a closer look

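The gastruloid nuclei lie outside the bulk comparisons, and 4 members had UMIs there, more than the 3 that a count of 0 allows. Every gene listed for the nuclei had a UMI in at least 34 of them, so passing that limit follows from being listed. No control preparation or share of free RNA was set beside them, so they are counts and not shown to be expression. APOA1 had 208 UMIs, RBP4 142, APOB 72 and TF 54 over 3422 nuclei. No other member was listed in that table. Bulk groups of 2 or 3 libraries were not tested for a library far from the rest, and the interaction of sgRNA and stage passed for 0 of the 5 members with an estimate.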

How the results depend on the processing

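Members called in foregut with against without the sgRNA fell from 2 to 0 in voom and to 1 (AFP) with all 5 groups in the fit, and ranged from 0 to 3 when 1 library was left out. The interaction ranged from 0 to 1 called (RBP4, without FG_CRISPRi replicate 1), and LTR5 within 50 kb instead of 100 kb was near 0 members. Some values near 0 changed sign without passing: APOA1 in endoderm with the sgRNA (0.33 in voom, 0.0505 with the replicate block) and TTR in foregut (0.00929 in DESeq2, 0.009289 with RLE size factors). Over fits that left out 1 library, log2 fold changes for the sgRNA in foregut ranged from −0.22 to 0.18 (TTR), −0.50 to 0.0931 (APOA1), −0.20 to 0.10 (APOA2), −0.48 to 1.28 (APOB) and −0.62 to 0.19 (TF), in endoderm from −0.81 to 0.65 (APOA1) and −5.09 to 0.37 (APOB), for the interaction from −0.89 to 0.56 (APOA1) and −0.24 to 5.63 (APOB), and for RBP4 in foregut against endoderm with the sgRNA from −6.01 to 0.40. The cause was not tested. With a replicate block, 2 members were called in foregut for the sgRNA, 8 and 7 in the foregut steps without and with it, 2 in endoderm against hESC and 0 in the others. Crossed pairing in foregut, added after the data were seen, called 3 members and 74 genes. Of all values under other settings, 548 kept direction and side of the threshold, 20 lost and 5 gained a call, and 24 changed sign.

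Over all genes, calls for the sgRNA in foregut went from 33 to 11 (voom), 209 (all groups), 19 (replicate block) and 16 to 527 (1 library left out). In endoderm they went from 7 to 1 (voom, at least 10 reads, and all groups), 45 (DESeq2), 186 (no filter) and 1 to 9. For the interaction they went from 44 to 200 (DESeq2), 139 (no filter), 89 (all groups), 16 (replicate block) and 0 to 805. With 2 libraries per foregut group, members of few reads (RBP4, APOB) had wide intervals, and depth limits every value under 0.252 CPM.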
